A study of Drosophila melanogaster with 4 samples.

Results

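Genes whose main known work is in the germ line were followed in the gut RNA of flies with and without dWdr4. The 10 genes were c(3)G, c(2)M, cona and corolla of the synaptonemal complex, the piRNA Argonautes piwi, aub and AGO3, the germ cell RNA regulators vas and nos, and blanks of the testis. They were taken by FlyBase gene symbol from a table of 17807 genes, and all 10 were found there. The set was chosen from values of this same contrast, since c(3)G and blanks were already known to differ between the genotypes, so the members' differences are described here without a test. The question was whether those 2 genes moved alone or with others of their kind.

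The guts came from one-week-old (7 day) females of the wild-type control strain yw (WT) and of wh7, a mutant allele of dwdr4 carried on both X chromosomes. dwdr4 is listed as wuho in the table and encodes dWdr4, the WD repeat partner of the RNA methyltransferase dMettl1. There were 2 libraries per genotype, each from 20 to 30 pooled guts, so the spread between libraries is that between pools and nothing in the labels separates animal from technical variation. The wh7/wh7 females were daughters of wh7/FM7c mothers and of wh7/Y fathers kept fertile by a dwdr4-gfp transgene, the daughters themselves being without it, and no such cross is described for yw. The mutation is in every cell of the fly, and differences between the stocks outside dwdr4 cannot be told apart from its effect in these libraries.

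The synaptonemal complex is the protein zipper that joins homologous chromosomes along their length in meiotic prophase of the oocyte, and in flies males do without it. The piRNA pathway loads small RNAs into Argonaute proteins of the Piwi clade, which silence transposons in the gonads. Vasa and Nanos mark and maintain germ cells, and Blanks is a double-stranded RNA-binding protein needed for sperm maturation. All are known first from the gonads, although Piwi has also been described in adult intestinal stem cells.

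The counts summed to between 93603837 and 101610356 per library. The mutated gene stood as the labels have it, with 1489 and 1256 wuho counts in the WT libraries against 2 and 3 in wh7. After edgeR's filter on low counts 10795 genes were tested, with a median log2 fold change of -0.02. By edgeR's quasi-likelihood test 52 of them (0.482%) passed a Benjamini-Hochberg adjusted p of 0.05, 27 higher in wh7 (0.250%) and 25 lower (0.232%). At an unadjusted p under 0.05 there were 1570 (14.5%), 7.23% higher and 7.32% lower, and DESeq2 called 859 (7.96%), 3.94% higher and 4.02% lower. Leaving out either wh7 library lowered edgeR's count of 52, whereas leaving out either WT library raised it. WT and mutant libraries did not overlap in 5043 tested genes (46.7%), and with 2 against 2 an exact two-sided permutation test of a single gene cannot go below p = 0.33. Among 9380 tested genes with a mean of at least 50 normalized counts, the WT libraries differed from each other by over 2-fold in 1019 and the wh7 libraries in 302.

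Of the 10 members, 7 passed the filter on low counts, and cona, corolla and nos did not. Among the 7, the fitted log2 fold change was positive in 5 and negative in 2, and the normalized libraries of the genotypes did not overlap in 5 (46.7% over all tested genes). Both c(3)G and blanks were among the 52 genes called, which is how the set was chosen, and nothing is read from that count. Values below are read counts in the order WT replicate 1, WT replicate 2, wh7 replicate 1 and wh7 replicate 2, and folds come from edgeR on TMM-normalized counts with their standard errors (SE).

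**Figure D1:**
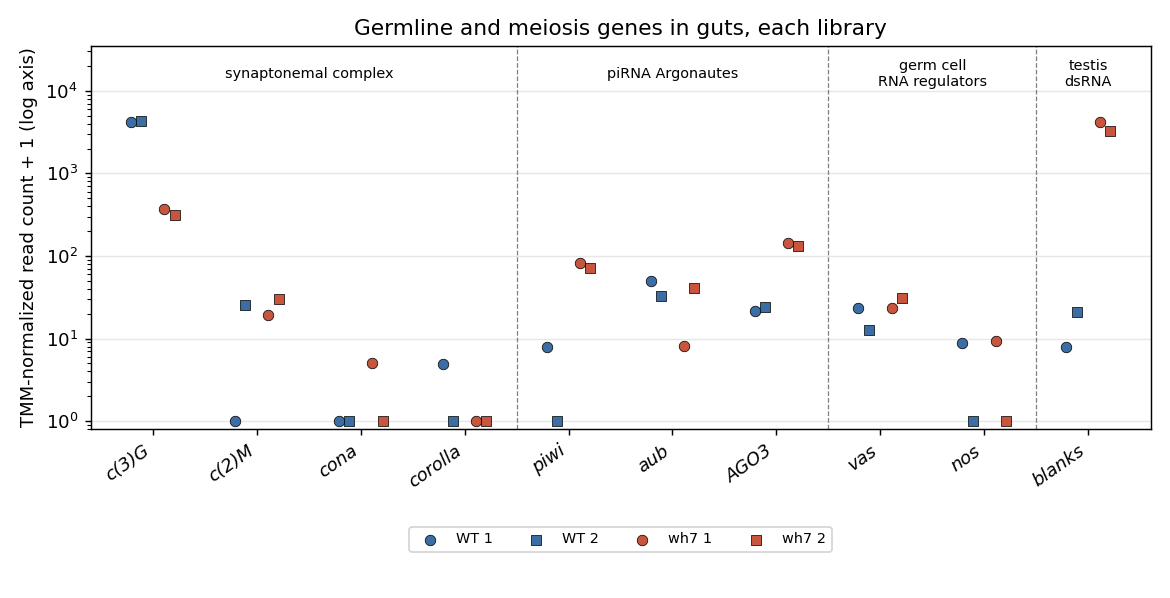
TMM-normalized read count plus 1 on a log axis (vertical) for each of the 10 genes (horizontal), grouped by role; blue marks are the WT libraries, red marks wh7, circles replicate 1 and squares replicate 2. c(3)G was lower and blanks, AGO3 and piwi higher in both wh7 libraries, and the other members stood at 50 counts or fewer in every library.

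c(3)G, the transverse filament protein that spans the gap between paired chromosomes, was the one member with ample RNA in the WT gut. It had 4237 and 4001 counts in WT against 356 and 332 in the mutant. The 2 WT libraries differed from each other by 1.02-fold and the 2 wh7 libraries by 1.18-fold after normalization, and the lowest WT value was far above the highest wh7 value. The log2 fold change was -3.64 (SE 0.17), a level 12.5-fold lower in the mutant. In bulk RNA, fewer cells that make a transcript and less of it in each cell cannot be told apart.

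On a scale of normalized counts per kilobase of exon, which allows levels of genes to be set side by side, c(3)G had a mean level of 1602 in WT and 129 in wh7. In WT this was above 69.9% of all tested genes, and in wh7 above 25.0%. The transcript was therefore still present in the mutant, with 688 counts over both libraries (95% Poisson interval 638 to 741, covering counting error only).

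The partners of c(3)G in the complex were near the detection limit. c(2)M, a kleisin-like protein of the lateral element along the chromosome axis, had 0 and 23 counts in WT against 18 and 31 in the mutant. One WT library had none and the other had as many as the mutant libraries, and the log2 fold change of 0.96 came with an SE of 1.54. cona, a central region protein, was counted in a single library, with 4 counts in wh7 replicate 1 and 0 in the other 3 libraries. corolla, its binding partner in the central region, was likewise counted in a single library, with 4 counts in WT replicate 1. The WT gut thus had 8238 counts of c(3)G over both libraries beside 23 of c(2)M, 0 of cona and 4 of corolla. A sum of 0 counts allows up to 3.69 (95% Poisson), so transcripts below that were not detectable at this depth.

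The Piwi-clade Argonautes did not share a direction. piwi, the nuclear member that silences transposons at the level of transcription in germ cells and in the somatic cells around them, had 7 and 0 counts in WT against 78 and 76 in the mutant. Both wh7 libraries lay above both WT libraries, and the log2 fold change was 4.38 (SE 1.18). Because the WT sum is 7 counts (95% Poisson interval 2.81 to 14.4), the size of this fold is poorly fixed, and it was 3.43 to 9.23 with one library left out in turn.

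AGO3, a cytoplasmic partner of Aub in the ping-pong cycle that amplifies piRNAs, had 21 and 22 counts in WT against 140 in each mutant library. The replicates differed by 1.14-fold in WT and by 1.10-fold in wh7, and the genotypes did not overlap. The log2 fold change was 2.63 (SE 0.35), a 6.21-fold higher level. aub, the cytoplasmic Argonaute of germ cells, went the other way on average, with 50 and 30 counts in WT against 7 and 43 in the mutant. Its wh7 libraries differed from each other by 5.56-fold and straddled a WT value, and the log2 fold change was -0.77 (SE 0.91), within its error.

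Levels of these Argonautes stayed low against other gut genes. Per kilobase of exon, the mean normalized count of piwi was 1.12 in WT and 24.6 in wh7, the latter above 11.0% of tested genes. That of AGO3 was 6.92 in WT and 43.2 in wh7, the latter above 15.2%. By contrast aub had 13.4 in WT and 7.85 in wh7, so in WT aub had the highest per-length level of the Argonautes and in wh7 the lowest, although its own libraries overlapped.

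The germ cell RNA regulators showed no separation beyond a handful of reads. vas, a DEAD-box helicase that assembles the piRNA machinery around germ cell nuclei, had 23 and 11 counts in WT against 22 and 32 in the mutant. The raw counts of the genotypes overlapped, and after normalization they were apart by less than 1 count, with a log2 fold change of 0.61 (SE 0.61). nos, a translational repressor that preserves germ line stem cells, had 8 and 0 counts in WT against 8 and 0 in the mutant. The vas gene contains vig on the opposite strand, which had between 17978 and 40633 counts, and most of nos lies within the span of CG11779 on the opposite strand, with 3404 to 8195 counts. These overlaps are of whole gene spans, and overlap of exons was not examined. Since the use of strand in counting is not given in the sources used here, some of the few vas and nos reads may be of those genes.

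blanks, which binds double-stranded RNA in the male germ line, was the largest change of the set. It had 7 and 19 counts in WT against 4119 and 3457 in the mutant. The WT libraries differed from each other by 2.94-fold at these few counts, the wh7 libraries by 1.32-fold, and the gap between the genotypes was far wider than either. The log2 fold change was 8.11 (SE 0.55), the 18th highest of all tested genes, and corresponds to a 276-fold higher level. Per kilobase of exon its mean normalized count was 10.7 in WT and 2944 in wh7, which was above 5.3% and 80.6% of tested genes. Among the members c(3)G had the highest per-length level in WT and blanks in wh7, where c(3)G came next, whereas in WT blanks was below aub as well.

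Besides c(3)G and blanks, AGO3 and piwi were thus set apart between the genotypes in both libraries, each at 140 counts or fewer. Both piwi and blanks passed the filter on low counts through their wh7 libraries. c(3)G lies on chromosome arm 3R, blanks and AGO3 on 3L and piwi on 2L, and none of them on the X chromosome that carries dwdr4. No other member exceeded 50 counts in any library.

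To ask whether other germline genes moved with the members, lists of germline and gonad genes were read from the same fit, with members left out. A list of small interfering RNA and double-stranded RNA-binding genes, which is not a germline list, was read as well. Of 39 synaptonemal complex and meiotic recombination genes, 33 were tested and 0 passed the adjusted threshold by edgeR (0.482% of all tested genes). At an unadjusted p under 0.05 there were 2 higher and 1 lower of the 33, where 14.5% of all tested genes stood in either direction, and DESeq2 called 2, both higher (3.94% of all genes). The list median was a log2 fold change of 0.05 beside -0.02 over all tested genes, and 7 of the 33 lay beyond 1 log2 unit in either direction, against 13.1% of all tested genes.

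rec, an MCM-like protein that promotes crossovers, had 85 and 119 counts in WT against 414 and 531 in the mutant. Its log2 fold change was 2.13 (SE 0.30) with an edgeR adjusted p of 0.0921. Over the alternatives the adjusted p of rec fell on either side of the threshold. rec lies 7 genes away from c(3)G on 3R and differed in the opposite direction to it. mei-38, a spindle protein, had the lowest fold change of the list at -1.32 (SE 0.55, edgeR adjusted p 0.386). The most abundant list genes, SkpA of the SCF ubiquitin ligase and the cohesin loader Nipped-B, act in all dividing cells and had log2 fold changes of -0.09 (SE 0.15) and 0.26 (SE 0.13). rec overlaps 2 genes on the opposite strand. alpha-Man-IIb had 305 and 404 counts in WT against 633 and 544 in the mutant (log2 fold change 0.67), the same direction as rec, and CG4576 had 137 and 248 counts in WT against 85 and 181 in the mutant (-0.63). Without known strand use, some reads of rec may be theirs where exons overlap, which was not examined.

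**Figure D2:**
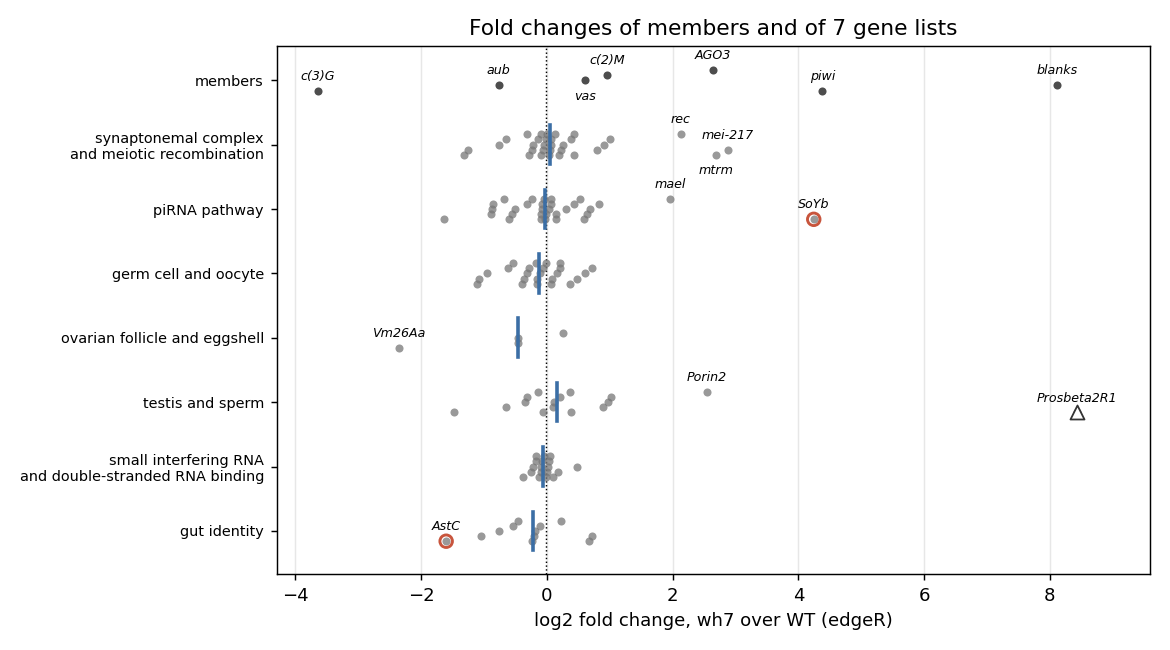
edgeR log2 fold change of wh7 over WT (horizontal) for the tested members and the tested genes of the 7 lists (rows), without 1 meiosis gene; red rings mark list genes past the adjusted threshold, blue bars list medians, the open triangle a gene (Prosbeta2R1) with 0 counts in both WT libraries, whose fitted value depends on the prior count, and the dotted line the median of all tested genes. SoYb and AstC are the ringed genes, and list medians run from -0.46 to 0.16.

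In the piRNA pathway list 31 of 35 genes were tested. By edgeR 3 were higher and 2 lower at an unadjusted p under 0.05 (7.23% and 7.32% of all tested genes). Past the adjusted threshold, 1 rose in wh7 and 0 fell (0.250% and 0.232% of all tested genes). That gene was SoYb, a Tudor-domain protein of the Yb family that acts in piRNA production. It had 19 and 18 counts in WT against 330 and 409 in the mutant, a log2 fold change of 4.24 (SE 0.27, edgeR adjusted p 0.0299). The genotypes did not overlap and the replicates lay close together. The adjusted p of SoYb became 0.258 when wh7 replicate 1 was left out and 0.244 when replicate 2 was, and over all alternatives it ran from 9.77e-21 to 0.258. SoYb lies within CG31875 on the same strand, which had 95 and 145 counts in WT against 359 and 278 in the mutant, so reads of the pair may be split between them.

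mael, which acts with Piwi in silencing transposon transcription, had 170 and 162 counts in WT against 621 and 733 in the mutant. Its log2 fold change was 1.96 (SE 0.19), and its edgeR adjusted p of 0.0510 just missed the threshold. mael passed with DESeq2 and when either WT library was left out, and its adjusted p ran from 4.49e-11 to 0.400 over the alternatives. nxf2, part of the complex through which Piwi silences chromatin, had 250 and 194 counts in WT against 416 and 401 in the mutant (log2 fold change 0.83, SE 0.22, edgeR adjusted p 0.217). Both genes were higher in each wh7 library than in either WT library.

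The list as a whole had 14 genes with a positive and 17 with a negative log2 fold change, a median of -0.03 and 3 of 31 beyond 1 log2 unit, against 13.1% of all tested genes. cuff, which protects piRNA precursors from processing, was the lowest with 18 and 46 counts in WT against 7 and 15 in the mutant (log2 fold change -1.63, SE 0.79, edgeR adjusted p 0.455). shu, a co-chaperone for loading Argonautes, and wde, a cofactor of the histone methyltransferase Egg, were at -0.89 (SE 0.32) and -0.55 (SE 0.17), with edgeR adjusted p of 0.323 and 0.276. The most abundant, tud and tapas, both Tudor-domain proteins, were at 0.14 (SE 0.13) and -0.05 (SE 0.13). fs(1)Yb, the Yb protein of the somatic ovary, had 4 counts in wh7 replicate 2 and 0 in the other libraries, and rhi, the heterochromatin protein of germline piRNA clusters, had 3 to 11 counts.

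**Figure D3:**
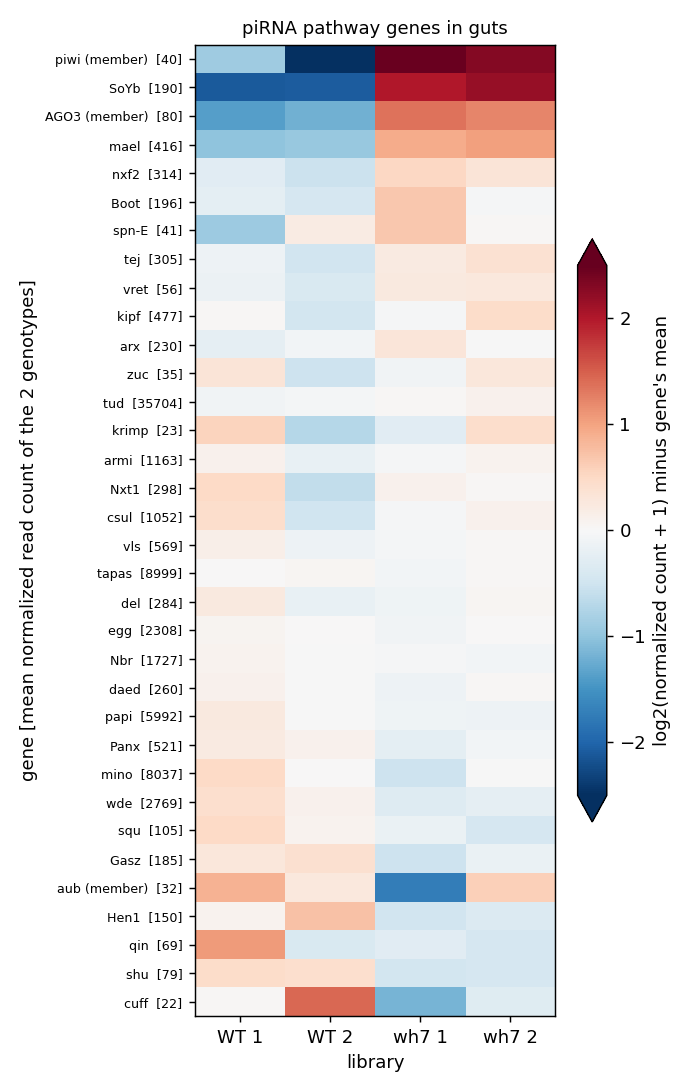
Colour gives log2(normalized count + 1) minus the gene's mean over the 4 libraries (columns) for the 3 Argonaute members and 31 tested piRNA pathway genes (rows, ordered by edgeR fold change; mean normalized count of the 2 genotypes in brackets). piwi, SoYb, AGO3 and mael are low in both WT and high in both wh7 libraries, aub is low in wh7 replicate 1 alone, and most other genes are pale.

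Germ cell and oocyte genes gave no call, where the shares called over all tested genes were 0.482% by edgeR and 7.96% by DESeq2. Of 34 matched genes 24 were tested, and 0 passed by edgeR or by DESeq2, with 0 higher and 2 lower at an unadjusted p under 0.05 (14.5% of all tested genes in either direction). Their median log2 fold change was -0.13. Genes that define germ cells were scarce, with bam at 0 in every library and osk at 15 and 6 counts in WT against 6 and 0 in the mutant. otu, an ovarian deubiquitinase, was the highest at 0.71 (SE 0.44) and gnu, a regulator of the egg's first cell cycles, the lowest at -1.12 (SE 0.54). tral and Sxl, which also work outside the germ line, supplied the most counts and were at -0.11 (SE 0.14) and 0.08 (SE 0.13).

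In the testis list, which bears on blanks, 44 of 71 matched genes had 0 counts in every library, among them the spermatid genes betaTub85D, dj and Mst87F. Of 16 tested genes 0 passed by edgeR (0.482% of all tested genes), and DESeq2 called 1 in each direction (7.96%). At an unadjusted edgeR p under 0.05 there were 1 higher and 2 lower (14.5% of all tested genes in either direction). Prosbeta2R1, a testis-specific proteasome subunit, had 0 counts in both WT libraries and 38 and 50 in wh7. It was at least 14.0-fold higher against a floor of 3 counts per library (edgeR adjusted p 0.109). Prosbeta2R1 passed the filter on low counts through its wh7 libraries alone, so nothing is read from this p. vis, a homeodomain regulator of spermatocyte genes, had 303 and 164 counts in WT against 89 and 84 in the mutant (log2 fold change -1.47, SE 0.37, edgeR adjusted p 0.201). Over the alternatives the adjusted p of vis fell on either side of the threshold. The most abundant list genes, eIF4G2 and m-cup, were at 0.09 (SE 0.32) and 0.11 (SE 0.27). The median over the 16 was 0.16.

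Genes of the small interfering RNA pathway and other double-stranded RNA-binding proteins were read because blanks binds such RNA. All 18 matched genes were tested, and 0 passed by edgeR (0.482% of all tested genes) or by DESeq2 (7.96%). At an unadjusted edgeR p under 0.05 there were 0 (14.5% of all tested genes). All 18 lay within 1 log2 unit, from -0.38 (SE 0.39) for vig to 0.48 (SE 0.24) for AGO2, the Argonaute of small interfering RNAs, and the median was -0.06. Rm62, an RNA helicase, supplied the most counts and was at 0.00 (SE 0.16).

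Markers of the gonads were counted in the same libraries. Germ cell markers (vas, nos, osk, bam, orb and otu) summed to 207 and 115 counts in WT against 171 and 231 in the mutant, with bam at 0, the sum being highest in wh7 replicate 2. Testis markers summed to 45 and 62 counts in WT against 99 and 110 in the mutant, all of them from fzo, with the other 5 of 6 at 0. The span of fzo overlaps that of cnc by 2391 bases on the same strand, so some of these reads may be of cnc. Ovarian follicle markers, all 6 of which were counted in at least 1 library, summed to 50 and 39 counts in WT, 307 in wh7 replicate 1 and 3 in wh7 replicate 2. The excess in wh7 replicate 1 was mostly of the eggshell genes Cp38 with 181 counts and Cp36 with 73, both at 0 in wh7 replicate 2. In normalized counts blanks, piwi, AGO3 and SoYb differed by at most 1.32-fold between the wh7 libraries. The part of gonad RNA in the members' differences was not tested. Of the 21 matched follicle and eggshell genes 4 were tested, and 0 passed by edgeR (0.482% of all tested genes) or by DESeq2 (7.96%). Their median was -0.46. At an unadjusted edgeR p under 0.05, 0 were higher and 1 lower (7.23% and 7.32% of all tested genes). That lower gene was Vm26Aa of the vitelline membrane, with 10 and 20 counts in WT and 3 in each wh7 library (log2 fold change -2.35, SE 0.83, edgeR adjusted p 0.323). Fcp3C and Cp18 supplied the most counts of those tested, at 0.26 (SE 0.55) and -0.46 (SE 0.68).

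The gut itself was well marked, with enterocyte markers (nub, Myo61F, betaTry and GATAe) summing to between 813272 and 948183 counts per library. Of the intestinal progenitor markers esg and Dl, esg was not matched by symbol. Dl had 1294 and 1820 counts in WT against 1118 and 1124 in the mutant (log2 fold change -0.55, SE 0.25). Enteroendocrine markers (pros, Tk, NPF and AstC) summed to 27611 and 24263 counts in WT against 11862 and 13509 in the mutant, and so moved in the direction of c(3)G. Their part in the members' differences was not tested. Of 12 gut identity genes tested, 0 were higher and 4 lower at an unadjusted edgeR p under 0.05 (7.23% and 7.32% of all tested genes). The list median was -0.23. Past the adjusted threshold by edgeR, 0 rose and 1 fell (0.250% and 0.232% of all tested genes). It was AstC, a peptide hormone of enteroendocrine cells, with 12472 and 11529 counts in WT against 4164 and 4066 in the mutant (log2 fold change -1.60, SE 0.14, edgeR adjusted p 0.0466, rising to 0.431 or 0.536 when the first or the other wh7 library was left out). nub, an enterocyte transcription factor, was the highest at 0.73 (SE 0.55), with WT replicate 1 at 6835 counts and the other libraries at 19415 or more. betaTry, a trypsin, and Myo61F, a brush border myosin, supplied the most counts and were at -0.21 (SE 0.15) and -0.10 (SE 0.27).

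The genes beside c(3)G and blanks on the chromosome did not share their differences in size. On 3R, of the 3 genes on each side of c(3)G, the 4 with over 50 counts, CG9590, Acyp2, nsl1 and CG9593, had log2 fold changes of 0.36, -0.03, 0.18 and 0.00. Uros2, which overlaps c(3)G by 22 bases on the opposite strand, had 3 to 17 counts and CG5614 at most 3. On 3L, the genes next to blanks were all but silent: lncRNA:CR44520 had 0 counts in WT and 4 and 3 in wh7, and lncRNA:CR44518 and lncRNA:CR44519 had 0 in every library. DIP-delta had at most 9 counts and CG34342 at most 4. CG4835, 2 genes away from blanks, had 17179 and 20724 counts in WT against 5205 and 4874 in the mutant, a log2 fold change of -1.98 opposite to that of blanks (edgeR adjusted p 0.0625).

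**Figure D4:**
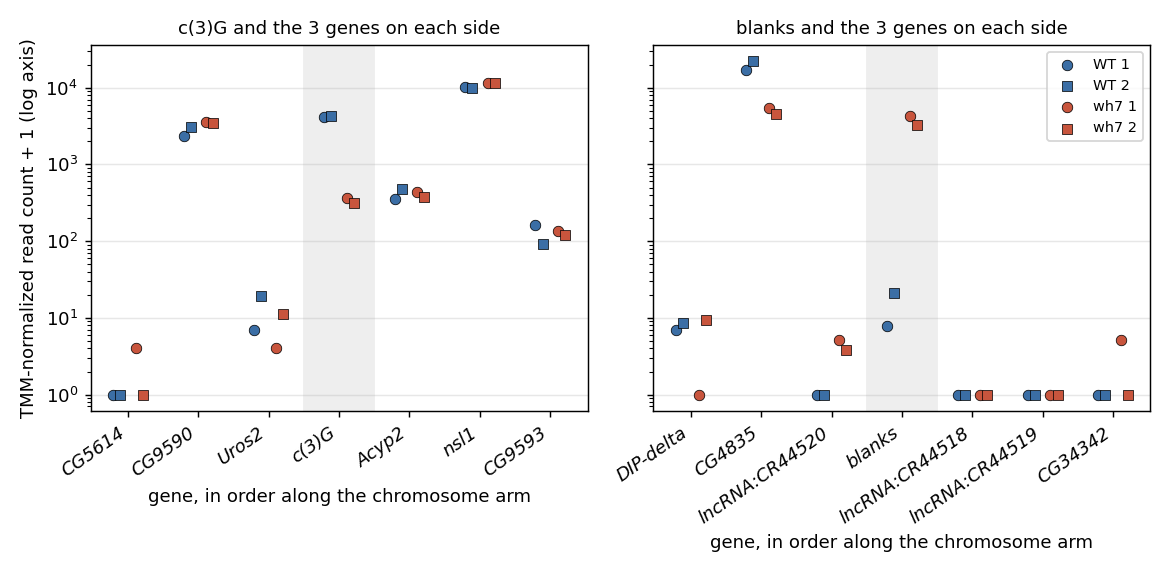
TMM-normalized read count plus 1 on a log axis (vertical) for c(3)G (left) and blanks (right) and the 3 genes on each side in chromosome order (horizontal); blue marks are WT libraries, red marks wh7, circles replicate 1 and squares replicate 2. Apart from the shaded central genes, only CG4835 shows the genotypes well apart at a high count.

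Genes with profiles most like these were sought among the 9380 tested genes with a mean of at least 50 normalized counts, by the Euclidean distance between log2 CPM profiles centred over the 4 libraries. Nearest to c(3)G were CG11470 at a distance of 0.302, LPCAT at 0.386, Corin at 0.403, Ugt36E1 at 0.476 and CG8563 at 0.577. LPCAT, a lysophospholipid acyltransferase, had 8095 and 9936 counts in WT against 751 and 893 in the mutant. Nearest to blanks were CG8135 at 0.846, sut3 at 1.11, Sgs5 at 1.15, CG30289 at 1.27 and CG17234 at 2.88. CG8135 had 2 and 3 counts in WT against 900 and 525 in the mutant, whereas sut3, a sugar transporter, and Sgs5, a salivary glue protein, had 0 in both WT libraries. None of these 10 genes belongs to a germline list, and with 4 libraries a likeness of profile rests on little more than the difference between the genotypes.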

How the data were processed

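The 4 gut libraries, 2 WT (yw) and 2 wh7, were grouped by their titles. Per the labels and methods, the authors used Trimmomatic 0.36 for trimming, HISAT2 for alignment, StringTie 2.1.4 for quantification and DESeq or DESeq2 for the comparison, and discarded genes of low TPM. The genome build, the use of strand and the step to whole numbers are not given in the sources used here. The authors deposited raw counts per gene, not normalized. A second deposited table with their own fold changes and p-values was not used.

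Symbols were matched to gene identifiers for 17710 of 17807 rows, and arms, gene order and exon lengths came from the BDGP6.54 annotation. Counts were filtered with filterByExpr, scaled by TMM and tested with edgeR 4.0.16 (limma 3.58.1, R 4.3.3) (quasi-likelihood test, genotype alone in the design), with Benjamini-Hochberg over all 10795 genes and a threshold of 0.05. Alternatives used DESeq2 1.42.0, its size factors, no filter, each library left out, a replicate block and a prior count of 2. Folds against a genotype at 0 used a floor of 3 counts per library. Depth was 93603837 to 101610356 counts per library, and intervals cover counting error only.

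The members and the gene lists were chosen with earlier results of these data known. Named genes were all members, and of each list those called, the highest and lowest log2 fold change, the 2 most abundant, 3 neighbours on each side and the 5 nearest profiles of c(3)G and blanks, and wuho. The meiosis gene with the highest fold change is not reported here. Others (rec, mael, nxf2, shu, wde, vis, fs(1)Yb, rhi, bam, osk, Cp36 and Cp38) were picked after their values were seen. The lists held 39 meiosis, 35 piRNA, 35 germ cell, 22 follicle, 73 testis, 19 small interfering RNA and 13 gut genes.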

Additional observations from a re-analysis of the deposited data

How the results depend on the processing

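With 2 libraries per genotype the calls depended on the setting. The directions of c(3)G, blanks, piwi and AGO3 were kept under all alternatives run. Their libraries did not overlap between the genotypes, which largely fixed this in advance, so nothing is read from it. The 52 genes called became 30 with no filter on low counts, 859 with DESeq2's Wald test and 0 to 921 when a library was left out. DESeq2 called 2 of 33 tested genes in the meiosis list and 2 of 31 in the piRNA list. In the testis list it called 2 of 16 and in the gut list 3 of 12, beside 7.96% of all tested genes. With a library left out the calls were 0 to 2 in the meiosis list, 0 to 3 in the piRNA list, 0 to 2 in the testis list, 0 to 1 in the small interfering RNA list and 0 to 4 in the gut list, and with no filter the gut list had 0. The cause was not tested. With the label's replicate number as a block, 0 genes were called, 0 in the piRNA list and 0 in the gut list. The replicates 1 of the genotypes deviated from their group means with r = -0.283 over 10795 genes. With 2 libraries per genotype this is a single comparison, which cannot show whether the shared numbers pair the libraries. A crossed pairing, added after seeing the data, called 99 genes.

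With a library left out in turn, the log2 fold change was -3.77 to -3.52 for c(3)G, 7.52 to 9.05 for blanks, 3.43 to 9.23 for piwi, 2.54 to 2.72 for AGO3, -2.47 to -0.023 for aub, 0.21 to 1.16 for vas and -0.044 to 7.60 for c(2)M, whose sign reversed without WT replicate 1. Signs also turned without WT replicate 1 for Fcp3C (range -0.21 to 0.93), eIF4G2 (-0.28 to 0.59), m-cup (-0.19 to 0.48) and vig (-0.82 to 0.25), without WT replicate 2 for Cp18 (-1.02 to 0.45), Myo61F (-0.40 to 0.27), SkpA (-0.19 to 0.0093) and Rm62 (-0.12 to 0.12), and for Rm62 without wh7 replicate 2. Of the other values for single list genes and wuho, 315 kept direction and side of the threshold, 17 passed it newly and 10 no longer passed. Where a genotype was left with 1 library, that library was assumed to vary like the other genotype's. Members below about 50 counts are limited by depth.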

Other observations

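Several germline list genes outside the named set, picked after their values were seen, varied with a library or a genotype. mus312, a scaffold for the nucleases that make meiotic crossovers, had 1134 counts in WT replicate 1 and 135 in WT replicate 2 beside 1174 and 1235 in wh7, so its WT libraries stood further apart than the genotypes. mei-217, which works with rec in the fly's crossover complex and shares its locus with mei-218, had 0 and 35 counts in WT against 137 and 141 in the mutant (log2 fold change 2.88, SE 1.49, edgeR adjusted p 0.482). mei-218 itself, at 578 to 703 counts, had a log2 fold change of -0.22 (SE 0.16). mtrm, an inhibitor of Polo kinase in oocytes, had 0 and 4 counts in WT and 12 and 17 in the mutant. fzo, a mitofusin of spermatids, had 45 and 62 counts in WT against 99 and 110 in the mutant (log2 fold change 0.89, SE 0.37, edgeR adjusted p 0.386). None of these passed the adjusted threshold by edgeR, and mei-217 and mtrm passed the filter on low counts through their wh7 libraries. The spans of mus312, mtrm and fzo overlap those of CG42307, Exo70 and cnc on the same strand, so reads of each pair may be split between them.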
